A study of Mus musculus with 4 samples.

Results

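The 33 genes described here belong to the heat shock and unfolded protein response, measured in mouse liver: 10 cytosolic chaperones and co-chaperones, 2 mitochondrial chaperones, 16 chaperones and regulators of the endoplasmic reticulum (ER), and 5 genes of the ATF4 branch. They were chosen by name, although earlier results of these data were known. All 33 were found among the 27968 gene names on the array, 2 of them under an older symbol (Dnajc3 as Dnajc3a, Manf as Armet), and they carried 56 probes. Of these probes, 54 passed the filter on signal, and each of the 33 genes kept at least 1 probe.

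Chaperones bind proteins that are not folded and help them to fold, or hold them until they are broken down. In the cytosol and nucleus, heat shock factor 1 drives chaperone genes such as Hspa1a when unfolded proteins build up. In the ER, the sensors IRE1, PERK and ATF6 respond to unfolded secretory proteins: IRE1 splices Xbp1 mRNA, ATF6 is cut to release a transcription factor, and PERK phosphorylates eIF2alpha, which favours translation of ATF4. XBP1 and ATF6 act on ER chaperone genes, and ATF4 on genes of amino acid supply and on Ddit3 and Trib3. Hepatocytes secrete most plasma proteins and hold a large ER.

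The series compared liver RNA of 2 LB1 mice with that of 2 control mice, each hybridised with Cy3 to 1 array. All were female BALB/c mice whose livers were taken on day 20 after inoculation. The title of the series names a Lactobacillus isolated from ostrich and its effects on body weight, intestinal microbes and metabolism. The labels do not spell out LB1, and they give neither the agent that the control mice received nor the ages. The replicates are labelled as separate mice. The file headers place LB1 replicate 1 and control replicate 1 on one slide (slide 1 here), and LB1 replicate 2 and control replicate 2 on another (slide 2).

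A level is the log2 of a spot's processed signal minus the log2 of the 75th percentile of that array, so 0 is the 75th percentile. That percentile was 147 and 80.8 in scanner units on the LB1 arrays, against 411 and 415 on the control arrays, and 22921 and 20311 spots were well above background on the LB1 arrays, against 25861 and 24736 on the control arrays. With only 4 arrays, their number limits the precision. A gene was called when its adjusted p in limma was under 0.05, after adjustment over all 22966 tested probes. By that rule, 19.2% of tested probes were called higher and 13.2% lower in LB1. Taking the brightest tested probe of each gene, 21.7% of 15775 genes were called higher and 9.77% lower. The median LB1 minus control difference of all those genes was 0.30 on the log2 scale (0.30 on slide 1 and 0.28 on slide 2), so a member at 0.30 lies in the middle of the genes. It was -0.34 when arrays were scaled to their median and 0.05 after quantile normalization. The scaling also turned the split of calls: 59.3% of called probes were higher in LB1 with the 75th percentile, 18.8% with the array median and 38.2% with quantiles.

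All 8 tested hepatocyte markers were well above background on every array, so the labelled tissue's markers were present. Of these, 3 were called higher and 1 lower, against 21.7% and 9.77% of all tested genes, and 5 of the 8 were saturated on at least 1 array. The 3 called higher, Alb, Apoa1 and Fgb, were saturated in both groups. Before scaling, Alb had 72932 and 70387 scanner units in LB1, against 72150 and 71130 in controls. Their differences are therefore not read as a rise. The mesothelium list stood apart. Of its 15 markers 12 were tested. Of these, 11 were called higher and all 12 had both LB1 arrays above both control arrays, against 21.7% and 49.3% of all tested genes. Their signals summed to 16.4 and 55.1 times the array's 75th percentile in LB1, against 2.11 and 0.584 times in controls. Msln, the mesothelial surface protein mesothelin, had levels of 2.65 and 4.37 in LB1, against -0.89 and -4.17 in controls. Several of the 12 tested markers, Upk3b and Lrrn4 among them, passed the filter on signal only through LB1, where they were high. For those, the filter itself favoured a higher value in LB1. The list was also chosen with earlier results of these data known, so these counts are a description and not a test. The plasma and B cell markers summed to 4.03 and 4.50 in LB1, against 2.09 and 2.21 in controls. Of these markers, 4 of 8 were called higher, against 21.7% of all tested genes. The other 8 marker lists held 45 tested genes, of which 10 were called higher and 4 lower, near the 21.7% and 9.77% of all tested genes. The part of these cells, and of the lower signal of the LB1 arrays, in the results below was not tested. In RNA of whole tissue, fewer cells of a type and less RNA per cell cannot be told apart.

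Promoters are shown first, because the classes of genes are known by their promoter elements. RefSeq's table for GRCm38.p6 held a promoter for 28 of the 33 genes, and the 250 bases before the start were searched on both strands. The ER stress element (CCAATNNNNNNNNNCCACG), which the transcription factors NF-Y and ATF6 bind, was found before 7 of 14 ER genes: Hspa5, Hsp90b1, Pdia6, Dnajc3, Creld2, Calr and Canx. It was found before none of the 14 genes of the other classes and in 0.113% of all 32851 promoters. The related ERSE-II (ATTGGNCCACG) was found before Herpud1 and in 0.0304% of all promoters. A pair of heat shock factor units (GAANNTTC or TTCNNGAA) was found before 5 of 7 cytosolic genes (Hspa1a, Hspa1b, Hsph1, Dnaja1 and Hspb1), both mitochondrial genes, Asns, none of the 14 ER genes and 12.8% of all promoters. A run of 3 such units was found before Hspd1 and Hspe1, which share a promoter region, and in 0.466% of all promoters. The ATF4 element TGATGNAA was found before Asns, Chac1 and Herpud1, and in 3.45% of all promoters. Any CCAAT, which the ER stress element contains, was found before 13 of 14 ER genes and in 33.8% of all promoters. A match describes the letters of this window, not binding. In the promoters below, written 5′ to 3′ along the gene's strand, capitals mark the ER stress element (on either strand) or, for Hspd1, the heat shock factor units.
Hsp90b1 promoter, chr10:86705445-86705694, minus strand: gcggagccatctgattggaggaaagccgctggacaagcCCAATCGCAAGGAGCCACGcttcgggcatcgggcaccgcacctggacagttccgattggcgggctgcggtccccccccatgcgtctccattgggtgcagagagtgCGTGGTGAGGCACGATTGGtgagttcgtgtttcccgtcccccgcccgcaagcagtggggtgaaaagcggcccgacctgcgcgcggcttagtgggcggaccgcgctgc
Dnajc3 promoter, chr14:118937682-118937931, plus strand: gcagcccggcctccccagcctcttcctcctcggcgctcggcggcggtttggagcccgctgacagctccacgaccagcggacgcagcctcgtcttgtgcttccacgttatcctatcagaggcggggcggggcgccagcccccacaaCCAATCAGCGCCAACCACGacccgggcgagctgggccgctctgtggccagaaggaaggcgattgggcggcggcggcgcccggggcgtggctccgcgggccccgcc
Hspa5 promoter, chr2:34771840-34772089, plus strand: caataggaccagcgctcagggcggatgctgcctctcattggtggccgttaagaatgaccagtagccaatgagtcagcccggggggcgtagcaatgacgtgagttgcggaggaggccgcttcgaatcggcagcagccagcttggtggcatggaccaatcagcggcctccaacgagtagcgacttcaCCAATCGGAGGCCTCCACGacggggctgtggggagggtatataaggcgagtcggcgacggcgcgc
Hspd1 promoter, chr1:55087933-55088182, minus strand: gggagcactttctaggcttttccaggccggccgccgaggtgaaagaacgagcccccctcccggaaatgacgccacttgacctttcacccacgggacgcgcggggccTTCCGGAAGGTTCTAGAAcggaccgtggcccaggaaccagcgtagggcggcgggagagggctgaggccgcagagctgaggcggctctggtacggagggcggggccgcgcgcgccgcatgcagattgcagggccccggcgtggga

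Several genes had more than 1 probe, and for some the probes gave different results, so their sequences are set out here. Each is the first 30 of the 60 bases of the probe, named by its position on the transcript as the files give it. Among tested probes that lie on one RefSeq transcript, the Hspa8 pair, the Dnajc3 probes and the Pdia6 pair are those whose results differ most within the 33 genes.
Hspa8 probe at base 730: ttgaggtcaaatcaacagctggagacaccc
Hspa8 probe at base 1731: gcaactgtggaagatgagaaacttcaaggc
Dnajc3 probe at base 939: cgagatggcagatacacagatgcaaccagc
Dnajc3 probe at base 1308: agaaataccaaaaaacaagaaatcattaaa
Dnajc3 probe at base 1461: atgagaaagaagtttgatgatggagaagat
Dnajc3 probe at base 2343: gaaagtgaagttccaagttgtttggtcgaa
Pdia6 probe at base 87: tcagcggtctgtattcttctagtgatgatg
Pdia6 probe at base 1511: aacactgacgaattctatgaattgtagcag

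The set as a whole did not move one way. Of the 33 genes, 2 were called higher in LB1 livers (Hyou1 and Dnajc3) and 3 lower (Dnaja1, Dnajb9 and Xbp1), against 21.7% and 9.77% of all tested genes. Both LB1 arrays lay above both control arrays for 17 of the 33 genes, against 49.3% of all tested genes, and below both for 7, against 27.5%. The median difference was 0.40, beside 0.30 over all tested genes, and 17 of the 33 lay above that value for all genes. The median was 0.05 on slide 1 and 0.42 on slide 2. The share called lower and the shares with groups apart lie near those of all genes, and the share called higher lies below. None of the 5 calls held when either control array was left out (members at an unadjusted p under 0.05 in limma numbered 5 without control replicate 1 and 5 without control replicate 2), although the 5 differences kept their sign.

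**Figure D1:**
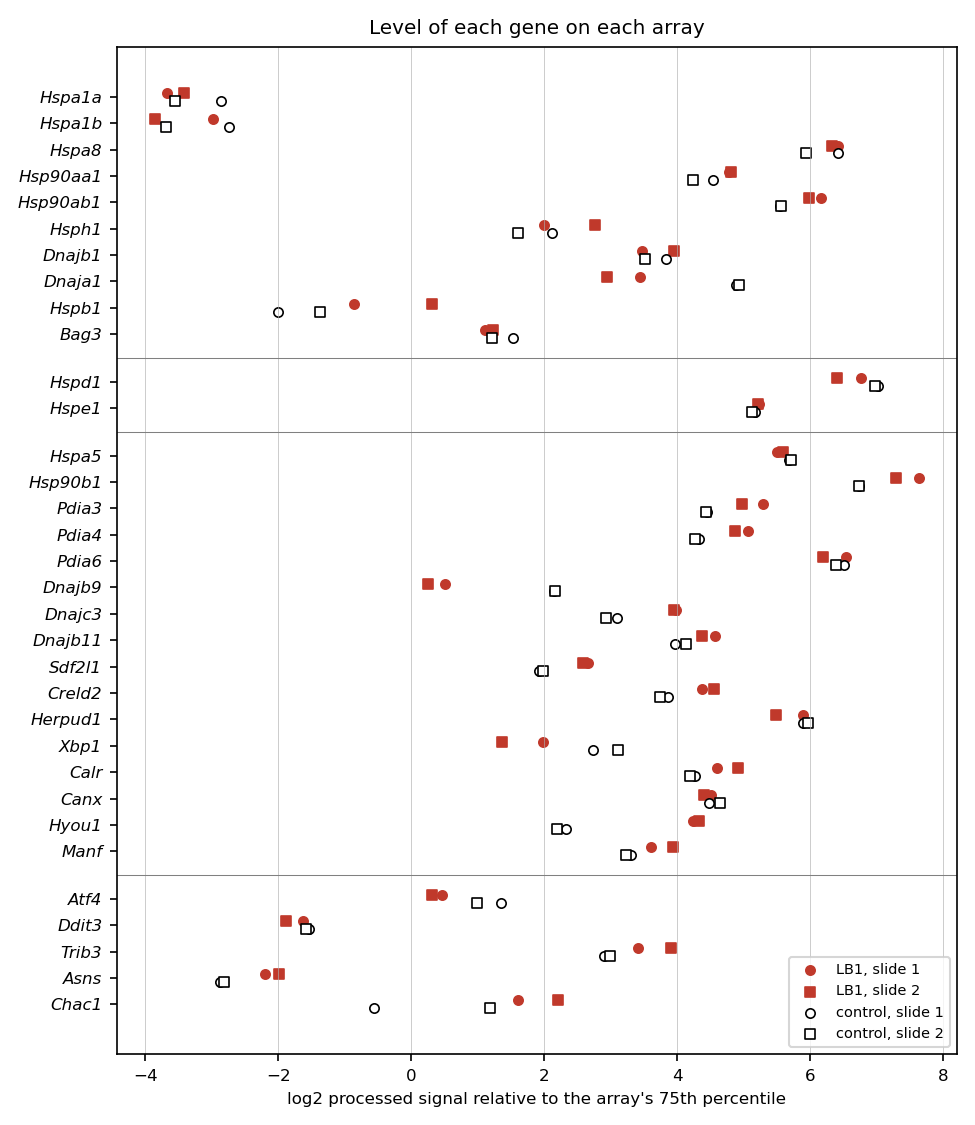
Level of each gene at its brightest tested probe on each array, as log2 of the processed signal relative to the array's 75th percentile; filled red symbols are LB1 arrays and open symbols control arrays, circles slide 1 and squares slide 2. The LB1 symbols of Hyou1 sit near 4 and its control symbols near 2, while for Hspa8, Bag3 and Canx the symbols of the groups overlap.

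Among the cytosolic chaperones, only Dnaja1 was called, and it fell. DNAJA1 is a J-domain co-chaperone that delivers substrates to HSP70. Its brightest probe (chr4:40677306-40678761 on mm9) had levels of 3.43 and 2.94 in LB1, against 4.88 and 4.93 in controls. In scanner units this was 1588 and 622 in LB1, against 12116 and 12664 in controls. Both LB1 values were below both control values, by -1.72 on the log2 scale (SE 0.26, adjusted p = 0.0217 in limma), which is 3.29-fold lower. The other Dnaja1 probes gave -2.30 (adjusted p = 0.0231) and -2.14 (adjusted p = 0.0201 in limma), so all 3 probes of the gene were called lower.

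The stress-inducible HSP70 genes were near background and not called with the processing used here. Hspa1a had levels of -3.68 and -3.42 in LB1, against -2.86 and -3.56 in controls, and in LB1 neither array held it clear of background, so no fold is given (adjusted p = 0.429 in limma). Hspa1b, its near-identical neighbour, had -2.98 and -3.85 in LB1, against -2.74 and -3.69 in controls, with a single LB1 array clear of background. The groups overlapped for both genes, and neither sign held under every setting. With normexp background correction both were called higher, Hspa1a by 1.06 (adjusted p = 0.00304) and Hspa1b by 1.16 (adjusted p = 0.00226 in limma). The probes of Hspa1a and Hspa1b shared no run longer than 5 bases, but they lie at different positions of the transcripts. The run therefore does not tell whether a probe also binds RNA of the other gene, which was not tested. Dnajb1, an HSP40 that works with HSP70 and is induced by heat, had 3.47 and 3.94 in LB1, against 3.83 and 3.52 in controls, with a difference of 0.03 (SE 0.27, adjusted p = 0.929 in limma). Its other probe, at base 862, gave -0.68 (adjusted p = 0.0668 in limma), with both LB1 values below both control values. Bag3, a nucleotide exchange factor of HSP70, differed by -0.20 and Hsph1, the HSP110 exchange factor, by 0.51, and their groups overlapped.

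The constitutive chaperones were not called at their brightest probes. Hspa8, the constitutive HSP70, had 6.41 and 6.32 in LB1, against 6.42 and 5.93 in controls, and differed by 0.19 (SE 0.26, adjusted p = 0.582 in limma). Hsp90aa1 had 4.78 and 4.81 in LB1, against 4.54 and 4.24 in controls. Hsp90ab1, the constitutive HSP90, had 6.17 and 5.97 in LB1, against 5.54 and 5.55 in controls. Both HSP90 genes lay above the controls on both LB1 arrays, by 0.40 and 0.52, but neither was called, and both turned negative when arrays were scaled to their median. Hspb1, the small heat shock protein HSP27, had -0.86 and 0.32 in LB1, against -2.00 and -1.37 in controls. Its difference of 1.41 (SE 0.47) was the highest of the 10 cytosolic genes, with an adjusted p of 0.0720 in limma and of 0.0328 with the slide as a block.

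The mitochondrial chaperonin genes did not pass the test at their brightest probes. Hspd1 encodes HSP60 and Hspe1 its lid, HSP10. Hspd1 had 6.77 and 6.41 in LB1, against 7.02 and 6.97 in controls, a difference of -0.41 (SE 0.24, adjusted p = 0.224 in limma), with 1 control array saturated, so the difference is only an upper limit. Hspe1 had 5.22 and 5.22 in LB1, against 5.17 and 5.12 in controls, a difference of 0.07 that turned negative with quantile normalization and with scaling to the array median. At these probes neither gene had an unadjusted p under 0.05 in limma or in the methods' t-test, but the other Hspd1 probe was called lower, by -1.95 (adjusted p = 0.0231 in limma).

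In the ER, the clearest change was a rise of Hyou1. HYOU1, also called GRP170, is an HSP70-like ER chaperone and the nucleotide exchange factor of BiP. Its probe (chr9:44200367-44200426 on mm9) had levels of 4.24 and 4.33 in LB1, against 2.32 and 2.19 in controls. In scanner units, before any scaling, the values were 2771 and 1624 in LB1, against 2052 and 1886 in controls, so the groups overlapped before scaling. The difference was 2.03 (SE 0.21, adjusted p = 0.0201 in limma), or 4.09-fold, with 1.92 on slide 1 and 2.14 on slide 2. Hyou1 was called higher under every other scaling, background correction and filter tried, with differences down to 1.40 when arrays were scaled to their median, but not by the methods' t-test after adjustment (adjusted p = 0.129, an equal-variance test of the same arrays and not a permutation test). Its other probe was not well above background on any array.

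Dnajc3 was the other ER gene called higher, but its probes disagreed. DNAJC3, also called p58IPK, is a lumenal co-chaperone of BiP. Its brightest probe, at base 1308 of the transcript (chr14:119374485-119375989 on mm9), had 3.97 and 3.95 in LB1, against 3.09 and 2.92 in controls, a difference of 0.96 (SE 0.21, adjusted p = 0.0319 in limma). The probe at base 1461 had 3.15 and 3.56 in LB1, against 2.76 and 2.97 in controls, a difference of 0.49 (adjusted p = 0.180 in limma). The probes at bases 939 and 2343 were called lower, by -0.96 (adjusted p = 0.0440) and -1.19 (adjusted p = 0.0449 in limma). The gene therefore has no direction that all its probes share. The call at the brightest probe was lost with quantile normalization (adjusted p = 0.0629 in limma) and when arrays were scaled to their median (adjusted p = 0.563).

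Dnajb9 and Xbp1 fell. DNAJB9, also called ERdj4, is a BiP co-chaperone that represses IRE1 and is known as an XBP1 target. Its brightest probe (chr12:45307313-45307372 on mm9) had 0.50 and 0.25 in LB1, against 2.15 and 2.15 in controls, and differed by -1.78 (SE 0.22, adjusted p = 0.0211 in limma), which is 3.43-fold lower. A further Dnajb9 probe gave -2.68 (adjusted p = 0.0201) and the remaining one -0.70 (adjusted p = 0.236 in limma). Xbp1 (chr11:5424970-5425029 on mm9) had 1.97 and 1.36 in LB1, against 2.73 and 3.11 in controls, a difference of -1.26 (SE 0.31, adjusted p = 0.0378 in limma). All LB1 values of both genes were below all control values. The Xbp1 difference was -0.76 on slide 1 and -1.75 on slide 2, and its adjusted p was 0.0511 with the slide as a block and 0.0670 without LB1 replicate 2. The single Xbp1 probe does not tell spliced from unspliced mRNA.

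BiP itself differed little with the processing used here. Hspa5, which encodes BiP, the central HSP70 of the ER, had 5.49 and 5.58 in LB1, against 5.68 and 5.72 in controls. Both LB1 values were below both control values, by -0.16 (SE 0.21, adjusted p = 0.578 in limma). With normexp background correction Hspa5 was called lower, by -0.68 (adjusted p = 0.00372 in limma). With quantile normalization it lay at -0.53 and was not called (adjusted p = 0.0967 in limma). Hsp90b1, the ER HSP90 called GRP94, had 7.63 and 7.29 in LB1, against 6.73 and 6.73 in controls. It differed by 0.73 (SE 0.23, adjusted p = 0.0661 in limma), and its other probe gave nearly the same, 0.71 (adjusted p = 0.0581).

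A run of ER folding factors lay above the controls on both LB1 arrays without being called with the processing used here. The disulfide isomerases Pdia3 and Pdia4 differed by 0.69 (adjusted p = 0.0712) and 0.67 (adjusted p = 0.0667 in limma). Pdia3 had 5.29 and 4.98 in LB1, against 4.44 and 4.43 in controls. Sdf2l1, a partner of the BiP complex, had 2.66 and 2.58 in LB1, against 1.92 and 1.98 in controls. It differed by 0.67 (adjusted p = 0.0624 in limma). Creld2, an ER stress-induced gene for a secreted ER protein, differed by 0.66 (adjusted p = 0.0715 in limma). Calr, the lectin chaperone calreticulin, differed by 0.52, Manf, a secreted ER stress factor, by 0.50, and the BiP co-chaperone Dnajb11 by 0.43, with adjusted p of 0.133, 0.145 and 0.184 in limma. Relative to the median of all genes, these 8 genes, Hsp90b1 included, were at 0.44 or less, and Calr, Manf and Dnajb11 turned negative when arrays were scaled to their median and with normexp background correction. Across the settings tried, the lowest adjusted p was under 0.05 for Pdia3, Pdia4, Sdf2l1, Creld2 and Hsp90b1. It was not for Calr, Manf and Dnajb11. The groups overlapped for Pdia6 (-0.08), the lectin chaperone Canx (-0.11) and Herpud1 (-0.24), which helps to remove misfolded ER proteins. In the ER class, 10 of 16 genes had both LB1 arrays above both control arrays and 3 had both below, against 49.3% and 27.5% of all tested genes. Their median was 0.51.

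The 7 genes whose promoters hold the ER stress element did not move as one. Dnajc3 was called higher at 1 probe and lower at others, Hsp90b1, Creld2 and Calr lay at 0.73, 0.66 and 0.52, and Pdia6, Canx and Hspa5 lay at -0.08, -0.11 and -0.16.

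**Figure D2:**
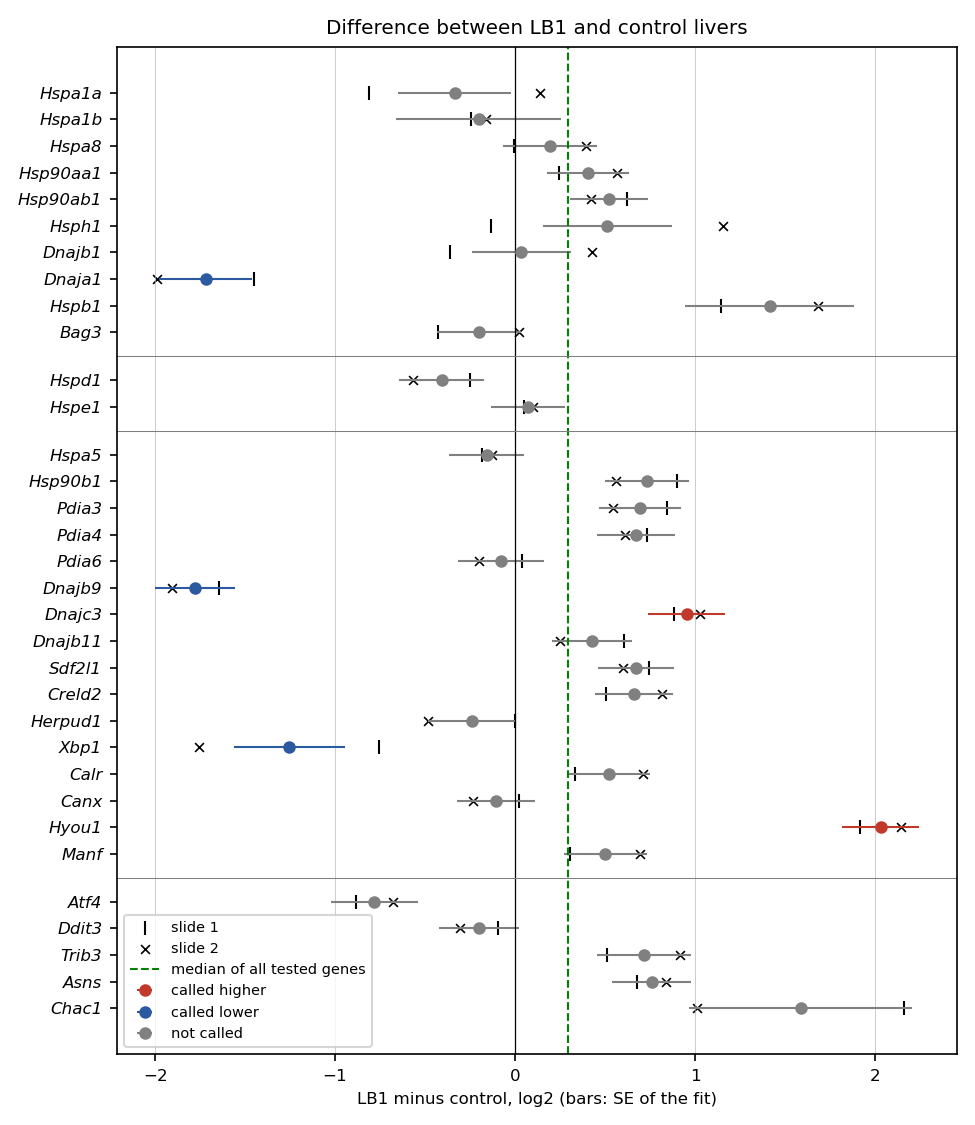
LB1 minus control difference in log2 at the brightest tested probe of each gene; points are means with the SE of the limma fit, ticks are slide 1 and crosses slide 2, and the green dashed line is the median of all 15775 tested genes at 0.30. Red points (Hyou1 and Dnajc3) were called higher and blue points (Dnaja1, Dnajb9 and Xbp1) lower.

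With the processing used here, none of the 5 genes of the ATF4 branch was called, and they spread to both sides. At an unadjusted p under 0.05, 2 were higher and 1 lower in limma, and 1 and 0 in the methods' t-test. Of all 22966 tested probes, 11186 had an unadjusted p under 0.05 in limma and 7014 in that t-test. Atf4, the transcription factor, had 0.46 and 0.30 in LB1, against 1.34 and 0.98 in controls, a difference of -0.78 (SE 0.24, adjusted p = 0.0615 in limma). Both LB1 values were below both control values. Ddit3, the stress factor CHOP, had -1.63 and -1.89 in LB1, against -1.53 and -1.59 in controls, a difference of -0.20 that turned positive with normexp and with the series table. Both LB1 values lay above both control values for the other 3 genes. Asns, asparagine synthetase, had -2.20 and -1.98 in LB1, against -2.88 and -2.82 in controls, a difference of 0.76 (SE 0.22, adjusted p = 0.0527 in limma). Trib3, a pseudokinase that ATF4 and CHOP induce, had 3.41 and 3.90 in LB1, against 2.89 and 2.98 in controls, a difference of 0.72 (SE 0.26, adjusted p = 0.0886 in limma). Chac1, a glutathione-degrading enzyme, had 1.60 and 2.20 in LB1, against -0.56 and 1.19 in controls. Its difference of 1.59 (SE 0.62) had an adjusted p of 0.103 in limma and of 0.0394 with the slide as a block, and the control arrays stood far apart. The median of the 5 genes was 0.72 (0.51 on slide 1 and 0.84 on slide 2). With normexp background correction, Asns (1.18, adjusted p = 0.000857) and Ddit3 (0.48, adjusted p = 0.0135 in limma) were called higher. Atf4 was then called lower (-0.77, adjusted p = 0.0105 in limma), and Trib3 and Chac1 were not called.

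The rule of the set puts cytosolic chaperones beside ER and ATF4 genes. The median difference of the 10 cytosolic genes was 0.11 (-0.19 on slide 1 and 0.41 on slide 2), that of the 16 ER genes 0.51 (0.42 and 0.55) and that of the 5 ATF4 genes 0.72, beside 0.30 over all tested genes. The cytosolic median lay -0.40 from the ER median, with -0.60 on slide 1 and -0.14 on slide 2. It lay -0.60 from the ATF4 median, with -0.70 and -0.43. The genes of a class are not replicates, so these gaps carry no test. The gap to the ER median was -0.070 with normexp and -0.055 with the deposited series table.

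Probes of one transcript did not always give one answer. For Hspa8 the probe at base 1731 gave 0.19, while the probe at base 730 had 2.21 and 1.79 in LB1, against 4.48 and 4.59 in controls, and was called lower by -2.53 (SE 0.25, adjusted p = 0.0201 in limma). Hsp90ab1 gave 0.52 at base 2052 and was called lower at base 1265, by -1.01 (adjusted p = 0.0394 in limma). Hspd1 gave -0.41 at base 2121, and its probe that was called lower lies at base 1575. Pdia6 gave -0.08 and -0.35 at bases 1511 and 1871 and was called lower at base 87, by -2.30 (adjusted p = 0.0201 in limma), where its levels were -0.54 and -0.73 in LB1, against 1.77 and 1.56 in controls. A further Pdia6 probe, on another transcript, gave 2.06 (adjusted p = 0.0798), and a Bag3 probe on another transcript was called higher, by 0.96 (adjusted p = 0.0374 in limma). In 4 genes (Hspa8, Hsp90ab1, Hspd1 and Pdia6) the probe nearer the 5′ end lay more than 1.5 below the one nearer the 3′ end. That size was chosen after the values were seen. Such a gap was found in 4 of the 13 members with more than 1 tested probe on a RefSeq transcript, and in 11.5% of 4026 genes of that kind. In the distance class of these 4 genes, from 500 bases up to the farthest class given next, the share was 17.0%.

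The 5′ probe gave the lower difference in 8 of the 13 members, beside 57.8% of those 4026 genes, and the median gap was -0.31 in the members and -0.20 in all. Among all genes the share with the lower value at the 5′ probe fell with distance, but the size of the gap did not follow it. The 5′ probe was lower in 71.5% of genes with probes up to 499 bases apart, in 42.4% of those with probes 2001 or more bases apart, and in 58.8% of those in between. The median gaps were -0.27, 0.30 and -0.35 in the same order, and gaps of more than 1.5 were found in 4.45%, 8.14% and 17.0%. Opposite calls on one transcript were found in 1 member (Dnajc3) and in 132 of the 4026 genes. Other members held together across their probes: Dnaja1 was lower at all 3 and Hsp90b1 lay between 0.71 and 0.73.

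**Figure D3:**
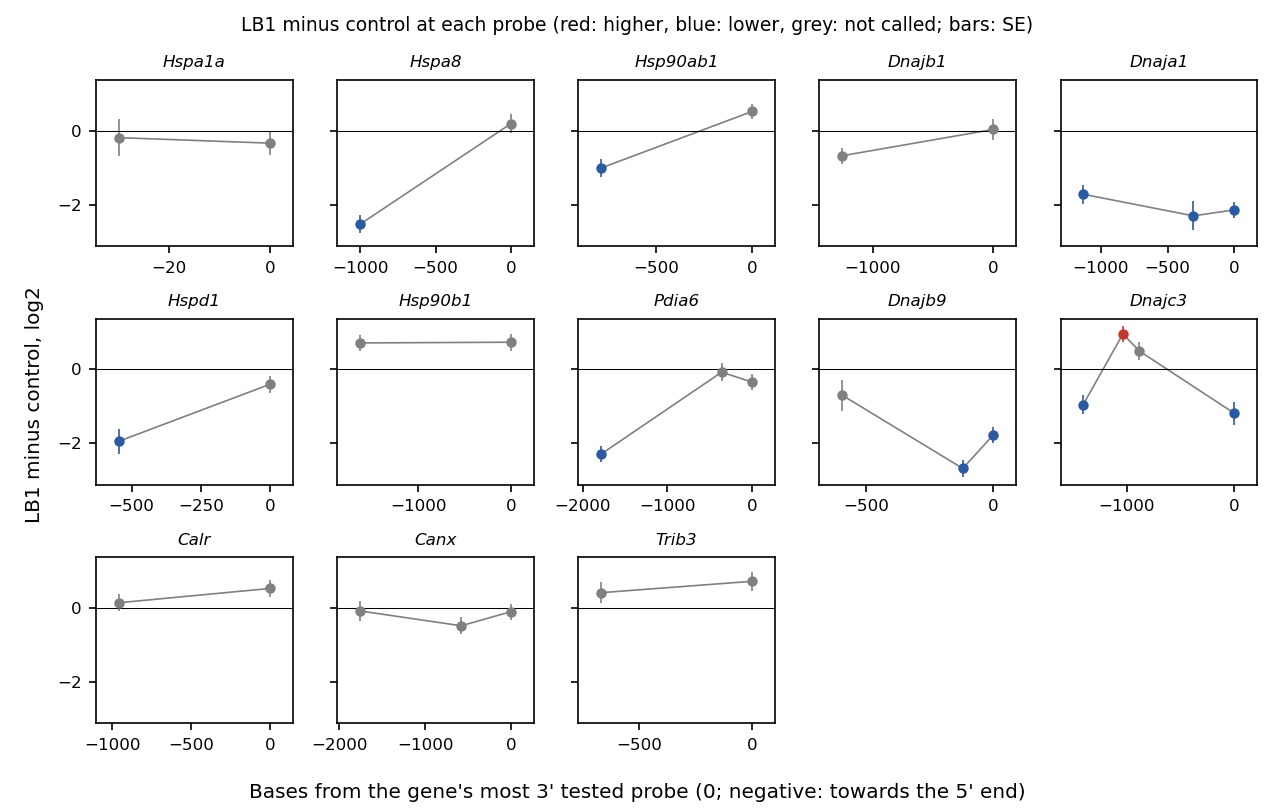
LB1 minus control difference in log2 at each tested probe on a RefSeq transcript, for the 13 members with more than 1, against the distance in bases from the gene's most 3′ tested probe; bars are the SE of the limma fit, red probes were called higher, blue lower and grey not called. Dnaja1 is blue at all 3 probes, Dnajc3 has both red and blue probes, and Hspa8, Hsp90ab1, Hspd1 and Pdia6 are blue at their 5′ probe alone.

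Other genes of the same pathways, listed by function, are given for context. Of 36 other genes listed as cytosolic chaperones and heat shock factors, 3 were called higher and 5 lower, against 21.7% and 9.77% of all tested genes. The median of the list was -0.07. The lower ones included 4 subunits of the cytosolic chaperonin that folds actin and tubulin: Cct3 (-2.34), Cct4 (-1.66), Tcp1 (-1.47) and Cct6a (-1.28). Cct3 had -0.89 and -1.38 in LB1, against 1.17 and 1.24 in controls. The chaperonin was singled out after its values were seen. Of its other subunits tested, Cct8 differed by -0.74, Cct2 by -0.30, Cct5 by 0.19 (negative under quantile, median and normexp settings) and Cct7 by 0.64, none of them called. The called subunits were lower under each of those settings too. Called higher were Hsf2 (2.25), a heat shock factor, Serpinh1 (2.23), the collagen chaperone HSP47, and Cdc37 (0.93), which loads kinases onto HSP90. Hsf2 was weak, at 25.8 and 16.4 in scanner units in LB1, against 23.0 and 11.7 in controls before scaling. It was clear of background on only 1 control array and passed the filter through LB1. Serpinh1 had 3.77 and 4.09 in LB1, against 2.00 and 1.40 in controls. Its protein resides in the ER, although the list counts it with the cytosolic genes.

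Of 6 other mitochondrial genes, 1 was called higher, the protease subunit Clpp (1.59), and 1 lower, the mitochondrial HSP90 Trap1 (-1.30). The other 4 were not called. These counts stand beside 21.7% and 9.77% of all tested genes, and the median of the list was -0.16. Of 32 other ER genes tested, 7 were called higher and 4 lower, with a median of 0.18, beside 21.7% and 9.77% and a median of 0.30 over all tested genes. These shares lie near those of all genes. The largest rises were of the translocon subunit Sec61a1 (1.35), the ubiquitin ligase Syvn1 (1.24), the ER lectin Os9 (1.17) and Sec61b (1.02). The genes that fell were Selenos (-1.38), the disulfide isomerase Pdia5 (-1.13), the oxidase Ero1b (-1.09) and the lectin Erlec1 (-1.07). Sec61a1 had 6.92 and 7.33 in LB1, against 5.74 and 5.81 in controls.

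Of 28 other genes tied to ATF4 and the eIF2alpha kinases, 8 were called higher and 3 lower, against 21.7% and 9.77% of all tested genes, with a median of 0.55. Phgdh, the first enzyme of serine synthesis, rose by 2.36, with -1.49 and -0.43 in LB1, against -3.39 and -3.25 in controls. Sesn2 (1.82), Nupr1 (1.71) and the hepatic hormone Fgf21 (1.54) also rose. Fgf21 had 1.40 and 0.71 in LB1, against -0.39 and -0.57 in controls. The glycyl-tRNA synthetase Gars (-1.88), Stbd1 (-1.38) and the amino acid-sensing kinase Eif2ak4 (-0.78) fell.

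**Figure D4:**
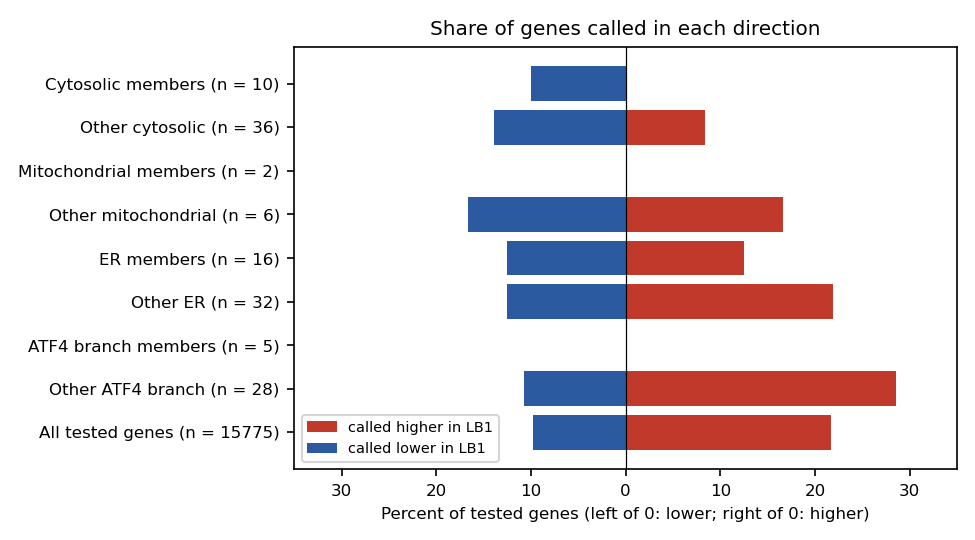
Percent of tested genes called higher in LB1 (red, right of 0) and lower in LB1 (blue, left of 0) for each class of the 33 genes, for the other genes of each pathway and for all 15775 tested genes. The other ATF4 branch genes reach 8 higher and 3 lower of 28, while all genes stand at 21.7% and 9.77%. Serpinh1, whose protein resides in the ER, is counted with the other cytosolic genes.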

How the data were processed

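Liver RNA was measured on 4 arrays of 1 colour, 2 per group. The deposited scanner files hold spot intensity on a linear scale; the processed signal had its background subtracted and was detrended within each array with Feature Extraction 10.5.1.1 on scanner G2505C, per the file headers (the design text names other versions). The deposited series table holds the mean spot intensity, whole numbers without scaling or centring, with medians over non-control spots of 63.0 and 46.0 for LB1 and 74.0 and 68.0 for control arrays.

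Values used here are log2 processed signals of the 43379 non-control spots, without flagged outliers, less the 75th percentile of their array and averaged per probe (41174 probes). Testing needed a signal well above background on each array of LB1, of control, or of both. Probes were named by accession through RefSeq (25001), by current symbol (5960) or by a unique older symbol (1767), and 8446 kept the file's name. The files give coordinates on mm9. The comparison used limma 3.58.1 (lmFit, then eBayes) under R 4.3.3, with Benjamini-Hochberg adjustment over all tested probes. The same code was tested on simulated data. With 2 arrays against 2, an exact permutation test of a single value could not go below p = 0.333, so none was used.

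Same-numbered arrays share a slide, per the file headers, and their deviations from the group means correlated at 0.151. The members and all lists, the 11 marker lists included, were chosen with earlier results of these data known. All members are named at their brightest tested probe, with other tested probes where call or direction differs. Of the other pathway genes, the called ones are named, at most 4 per direction by size, and of marker lists at most 3. Exceptions chosen after their values were seen are the uncalled chaperonin subunits. The alternatives tried were another background correction, scaling, filter, variance model, probe choice, the methods' t-test, the series table, the slide as a block and leaving out each array.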

Additional observations from a re-analysis of the deposited data

How the results depend on the processing

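Members called higher and lower numbered 2 and 3 in the analysis as reported. With normexp they were 7 and 11, with quantiles 1 and 3, after scaling to the array median 1 and 5, with the filter on all 4 arrays 9 and 4, with trend and robust variance 9 and 4, with values of the deposited series 7 and 5, with the mean over probes 3 and 5, and with the probe nearest the 3′ end, an alternative added after seeing the data, 1 and 4. The methods' t-test called 0 and 0 after Benjamini-Hochberg, with 10 members at an unadjusted p under 0.05, and 1 and 2 at its own threshold of 2-fold. With the slide (the shared replicate number) as a block they were 4 and 2: Hspb1 and Chac1 passed and Xbp1 did not. The block changed no other member's call. Leaving out 1 array gave 0 to 6 higher and 0 to 3 lower.

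Probes called higher and lower were 11354 and 4641 with normexp, 2450 and 3966 with quantiles, 1652 and 7117 with the array median, 10695 and 3759 with the series table, 0 and 0 with the adjusted t-test (7014 probes at an unadjusted p under 0.05), 2230 and 1881 at the methods' threshold, and 17541 higher without a filter. Leaving out 1 array gave 0 to 6013 higher (0 without control replicate 2, with 5815 probes at an unadjusted p under 0.05 in limma) and 1 to 5014 lower.

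The cytosolic minus ER gap was -0.070 with normexp and -0.055 with the series table, and -0.58 to -0.19 leaving out 1 array. The cytosolic minus ATF4 gap was -0.26 with the series table and -0.85 to -0.29 leaving out 1 array.

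Signs turned for several members, Dnajc3, called higher at its brightest probe, among them. With normexp these were Hspa1a (1.06), Hspa1b (1.16), Hspa8 (-0.40), Hsp90aa1 (-0.12), Hsp90ab1 (-0.073), Dnajb1 (-0.49), Hspe1 (-0.51), Dnajb11 (-0.10), Calr (-0.036), Manf (-0.014) and Ddit3 (0.48). With the array median they were Hspa8 (-0.44), Hsp90aa1 (-0.23), Hsp90ab1 (-0.11), Hsph1 (-0.12), Dnajb1 (-0.60), Hspe1 (-0.56), Dnajb11 (-0.21), Calr (-0.11) and Manf (-0.13). With quantiles they were Hspa8 (-0.22), Dnajb1 (-0.21) and Hspe1 (-0.25). With the series table they were Hspa1a (0.75), Hspa1b (0.93), Hspa8 (-0.14), Dnajb1 (-0.26), Hspe1 (-0.26) and Ddit3 (0.34). With the mean over probes they were Hspa8 (-1.17), Hsp90ab1 (-0.24), Dnajb1 (-0.32), Bag3 (0.38) and Dnajc3 (-0.18), and with the 3′ probe Dnajc3 (-1.19). Leaving out 1 array turned Hspa1b (-0.68 to 0.27 over the 4 arrays left out, positive without LB1 replicate 2 or control replicate 1), Dnajb1 (-0.20 without LB1 replicate 2 and -0.12 without control replicate 2), Pdia6 (0.10 without LB1 replicate 2), Hspa1a (-0.68 to 0.013, positive without control replicate 1) and Hspa8 (-0.053 to 0.44, negative without control replicate 2). The cause was not tested, apart from the probe settings, which read other probes.

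No filter and leaving out the saturated member changed no count of members called. The small number of arrays limits every p here, and signal over background limits Hspa1a and Hspa1b.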
